A study of Mus musculus with 8 samples.

Results

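Gfap, S100b, Aqp4, Slc4a4, Slc1a2, Slc1a3, Gja1, Gjb6, Gjb2 and Ntsr2 are 10 genes known for their expression in astrocytes, and their transcripts were followed here in the hypothalamus and liver. The members were all array probes whose platform gene symbol is one of these 10 names. Of the 10 genes, 9 had a probe, and the 9 genes together held 14 of the 25697 probes on the array. Gjb6 had no probe by symbol or by gene ID and was not analysed here. Slc1a2 was read by 4 probes, Gjb2 by 3 and each of the other 7 genes by 1. In all, 11 probes of 7 genes passed the filter on dim probes, which kept probes detected, at a p-value below 0.05, on 4 or more of the 8 arrays. The single probes of S100b and Slc4a4 and 1 Slc1a2 probe (ILMN_3047516) did not pass it.

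Total RNA came from male C57BL/6 mice aged 13 weeks, all carrying a knockout of Fmod, the gene of the collagen-binding proteoglycan fibromodulin. Each tissue, hypothalamus and liver, was measured on 4 single-colour Illumina bead arrays. Both tissues carry the same knockout and wild-type mice were not analysed here, so the one comparison these arrays hold is hypothalamus against liver, and it says nothing on the effect of the knockout. The labels do not say whether the arrays of a tissue come from separate mice, so the p-values speak only of the spread among these samples, which may in part be technical. Both Fmod probes were dim: ILMN_2999762 was detected on 1 hypothalamus array and on 0 liver arrays, and ILMN_1230020 on 0 arrays of either tissue. Without wild-type arrays these values do not check the genotype.

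Astrocytes are the glial cells that clear glutamate and potassium from the space around synapses, pass small molecules to one another through gap junctions and wrap blood vessels with end-feet. Slc1a2 and Slc1a3 encode the main glutamate transporters of astrocytes, Aqp4 the water channel of the end-feet, and Slc4a4 a sodium bicarbonate cotransporter. Gja1, Gjb6 and Gjb2 encode connexins, the subunits of gap junction channels. Gfap encodes an intermediate filament, S100b a calcium-binding protein and Ntsr2 a neurotensin receptor. Several of these genes are also known outside the brain: Gjb2 is a connexin of hepatocytes, and Slc1a2 is known in hepatocytes around the central vein.

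In these whole-tissue samples Slc1a3, Ntsr2, Gja1, Aqp4 and Gfap were higher in hypothalamus, while every tested probe of Gjb2 and Slc1a2 was higher in liver. Of the 11 tested probes, 5 were higher in hypothalamus and 6 in liver by limma's moderated test (Benjamini-Hochberg adjusted p under 0.05 over 13498 tested probes). The background was high: 79.6% of all tested probes were called (41.8% toward hypothalamus, 37.8% toward liver), so a call by itself sets no gene apart. By gene, taking the brightest tested probe, 5 of 7 were on the hypothalamus side and 2 on the liver side, where 80.4% of all tested genes were called (43.1% and 37.3%). Beyond a 2-fold difference, limma's treat test put 5 of the 11 probes on the hypothalamus side and 4 on the liver side, against 22.1% and 19.4% of all tested probes (41.5% together). In the authors' normalized values, 5 of the 11 were called on each side, against 59.3% and 23.8% of all tested probes (83.1% together). The 4 hypothalamus and 4 liver values of all 11 probes did not overlap after normalization, as was the case for 74.4% of all tested probes (39.5% with hypothalamus above, 34.9% with liver above). The deposited signals did not overlap for 9 of the 11, against 68.2% of all tested probes (51.5% with hypothalamus above, 16.8% with liver above). The filter bears on these counts. Gfap, Slc1a3 and Ntsr2 were detected on no liver array and the Slc1a2 probe ILMN_2642339 on no hypothalamus array. Each therefore passed only through the tissue where it was high and was almost bound to differ that way. In tissue RNA, fewer cells of a type and less RNA per cell cannot be told apart.

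The stretches of genomic DNA just before the transcription start are shown for the 3 genes with the largest differences toward hypothalamus and for Gjb2, whose difference ran the other way. Each is the 250 bases upstream of the start from RefSeq on the GRCm38.p6 assembly, 5′ to 3′ on the strand of the gene. Capitals mark matches, on either strand, to any of 5 short motifs: TTGGC (bound by nuclear factor I), TTCNNNGAA (a STAT element), TGANTCA (an AP-1 element), TATAAA and GGGCGG (a GC box). Promoter stretches of 9 of the 10 genes were searched, and that of Aqp4 was not used here.
Slc1a3, chr15:8710808-8711057, minus strand: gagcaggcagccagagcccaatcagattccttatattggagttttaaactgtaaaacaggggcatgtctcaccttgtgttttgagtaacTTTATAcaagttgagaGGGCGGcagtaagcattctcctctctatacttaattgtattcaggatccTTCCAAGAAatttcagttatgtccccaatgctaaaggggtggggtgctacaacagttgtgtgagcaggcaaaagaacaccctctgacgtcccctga
Ntsr2, chr12:16653220-16653469, plus strand: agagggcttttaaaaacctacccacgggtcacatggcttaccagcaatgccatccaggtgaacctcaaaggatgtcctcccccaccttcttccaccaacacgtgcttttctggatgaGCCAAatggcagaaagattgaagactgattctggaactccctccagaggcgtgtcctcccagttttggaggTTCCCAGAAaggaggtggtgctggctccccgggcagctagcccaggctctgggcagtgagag
Gja1, chr10:56377050-56377299, plus strand: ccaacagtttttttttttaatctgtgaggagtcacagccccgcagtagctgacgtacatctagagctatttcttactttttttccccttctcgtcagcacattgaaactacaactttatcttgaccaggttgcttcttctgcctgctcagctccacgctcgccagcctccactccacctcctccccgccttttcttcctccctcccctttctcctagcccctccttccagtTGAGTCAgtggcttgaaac
Gjb2, chr14:57104703-57104952, minus strand: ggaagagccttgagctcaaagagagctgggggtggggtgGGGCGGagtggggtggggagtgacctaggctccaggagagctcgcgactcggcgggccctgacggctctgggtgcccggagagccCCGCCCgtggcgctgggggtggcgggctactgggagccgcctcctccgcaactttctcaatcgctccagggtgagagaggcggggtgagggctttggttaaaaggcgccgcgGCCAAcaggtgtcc

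The Slc1a3 and Ntsr2 stretches each held 1 match to TTCNNNGAA, which began 96 bases before the start of Slc1a3 and 62 bases before that of Ntsr2. That motif was present in 7.02% of 32851 RefSeq promoter stretches of the same length, in 5.66% of the stretches of genes on the hypothalamus side and in 6.04% for genes on the liver side. The Slc1a3 stretch also held TATAAA at 161 bases and GGGCGG at 145 bases before the start, and Ntsr2 held TTGGC at 133 bases. Gja1 held TGANTCA at 19 bases before the start, a motif present in 6.75% of all stretches. Gjb2 held GGGCGG at 211 and 126 bases and TTGGC at 14 bases before the start, motifs present in 32.7% and 41.5% of all stretches. GGGCGG was in 55.5% of the stretches of genes on the hypothalamus side and 54.0% on the liver side, and TTGGC was in 43.1% and 45.1%. TATAAA was present in 12.4% of all stretches and in 6.63% and 7.9% of those of called genes, and TGANTCA in 4.35% and 5.44% of the latter. The shares of all stretches also cover genes that were not tested, and shares for tested genes were not worked out. A gap between called genes and all stretches is therefore no measure of a tie to the tissue difference. Of the 4 stretches shown, that of Slc1a3 had the lowest share of G and C (44.8%) and that of Gjb2 the highest (69.2%). These matches describe the letters only.

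Gfap, the filament protein of the astrocyte skeleton, was higher in hypothalamus. Its probe ILMN_1214715 had normalized log2 intensities of 7.28, 7.23, 6.79 and 7.04 in hypothalamus replicates 1 to 4 and of 4.59, 4.78, 4.73 and 4.62 in liver replicates 1 to 4. All 4 hypothalamus values lay above all 4 liver values, and the liver probe was not well above background on any array. The means were 7.08 ± 0.22 and 4.68 ± 0.09 (SD, n = 4 each), a difference of 2.41 (SE 0.13, limma adjusted p = 4.95e-08). Since the liver side is only a bound, the hypothalamus signal exceeded that of liver at least 2.83-fold. The deposited signals, before any correction, were 375, 340, 240 and 327 in hypothalamus and 131, 147, 152 and 149 in liver. The log2 difference was 0.80 without background correction, 1.29 in the authors' normalized values and 1.70 after cyclic loess.

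"At least" folds use a floor for the dimmer tissue: on each array, the lowest intensity of any detected probe, or the probe's own intensity where that is higher. They hold within the normalization used.

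S100b, a calcium-binding protein of astrocytes and of some oligodendrocyte-lineage cells, was too dim to pass the filter. ILMN_2634742 read 4.78, 5.03, 5.54 and 5.17 in hypothalamus, where 3 of 4 arrays detected it, and 4.67, 4.38, 4.38 and 4.46 in liver, where 0 arrays did. The groups did not overlap, although hypothalamus replicate 1 lay close to liver replicate 1. In a fit to all 25697 probes, of which 44.4% were called (22.6% higher in hypothalamus, 21.8% in liver), the log2 difference was 0.66 (SE 0.16, limma adjusted p = 0.00668), and it was 0.21 without background correction. The bounded fold was under 1 and none is given.

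Aqp4, the water channel of astrocyte end-feet, was higher in hypothalamus and was the most uneven of these genes among the hypothalamus arrays. ILMN_2757232 read 9.58, 8.52, 8.75 and 8.28 in hypothalamus and 6.11, 6.64, 4.50 and 6.09 in liver. The groups did not overlap, with hypothalamus replicate 1 the highest and liver replicate 3 the lowest and the only array that did not detect the probe. The means were 8.78 ± 0.57 in hypothalamus and 5.84 ± 0.93 in liver (SD, n = 4 each). The difference was 2.95 on the log2 scale (SE 0.44, limma adjusted p = 0.000141), and the signal was at least 6.49-fold higher in hypothalamus with 3 of 4 liver arrays measured. The difference was 1.58 without background correction and lay between 2.50 and 3.22 with any 1 array left out.

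Slc4a4, which carries sodium and bicarbonate together across the membrane, was not measurable with its probe. ILMN_1221628 was not detected on any of the 8 arrays. It read 4.55, 4.82, 4.73 and 4.83 in hypothalamus and 5.43, 5.41, 5.06 and 5.48 in liver. The normalized values did not overlap but the deposited signals did. The log2 difference was -0.62 in the fit to all probes (SE 0.12, limma adjusted p = 0.00165) and turned to 0.06 in the authors' normalized values (limma adjusted p = 0.239), so no direction is given.

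The tested probes of the 2 astrocyte glutamate transporters went opposite ways, those of Slc1a2 by much smaller differences that depended in part on the normalization. Slc1a3 was bright on every hypothalamus array and was detected on no liver array. ILMN_2634317 read 14.47, 14.41, 14.42 and 14.39 in hypothalamus and 4.37, 4.68, 4.72 and 4.28 in liver. The hypothalamus arrays lay within 0.08 of one another. The means were 14.42 ± 0.04 and 4.51 ± 0.22 (SD, n = 4 each), a difference of 9.91 (SE 0.12, limma adjusted p = 1.75e-12), or at least 458-fold higher in hypothalamus. The deposited signals were 20513, 20365, 16622 and 19681 in hypothalamus and 122, 145, 152 and 128 in liver, so the contrast was visible before normalization. Across the other normalizations the log2 difference was smaller, between 7.28 and 9.34.

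Slc1a2 was higher in liver by each of its 3 tested probes, by less than the Gjb2 probes below. ILMN_3076439 read 9.11, 8.89, 9.22 and 9.19 in hypothalamus and 10.17, 10.43, 9.93 and 10.41 in liver. It was detected on all 8 arrays, and the normalized groups did not overlap. The log2 difference was -1.13 (SE 0.14, limma adjusted p = 3.61e-05), 2.19-fold higher in liver, and the treat test did not place it beyond 2-fold (adjusted p = 0.392). The deposited signals were 939, 771, 749 and 945 in hypothalamus and 870, 1233, 915 and 1289 in liver, and these overlap. The difference was -0.56 in the authors' normalized values (limma adjusted p = 0.000767) and -0.79 after median scaling.

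ILMN_3123195 read 9.49, 8.82, 8.93 and 9.10 in hypothalamus and 9.86, 10.06, 9.60 and 10.23 in liver. The nearest values of the groups were 9.49 and 9.60, and the deposited signals again overlapped, with 637 to 1152 in hypothalamus and 698 to 1119 in liver. The difference was -0.85 (SE 0.18, limma adjusted p = 0.00153), 1.80-fold higher in liver, and the treat test did not place it beyond 2-fold. It lost its call in 1 setting. It was -0.46 after median scaling (limma adjusted p = 0.0485) and -0.26 in the authors' normalized values, where the call was lost (limma adjusted p = 0.0962). The median difference over all tested probes bears on these small values: it was 0.07 with the quantile normalization used, 0.49 after median scaling and 0.39 in the authors' values.

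The other Slc1a2 probes were dim. ILMN_2642339 read 4.49, 4.46, 4.64 and 4.64 in hypothalamus, on no array of which it was detected, and 6.34, 6.43, 5.82 and 7.02 in liver, where all 4 arrays detected it. The difference was -1.84 (SE 0.22, limma adjusted p = 2.33e-05), at least 2.83-fold higher in liver, and it was -0.56 without background correction and -0.34 in the authors' normalized values. ILMN_3047516 was detected on 1 array of each tissue and read 4.57, 4.68, 5.06 and 4.81 in hypothalamus and 6.31, 4.86, 4.97 and 4.62 in liver. Its groups overlapped and its difference of -0.41 missed the threshold (SE 0.33, limma adjusted p = 0.385 in the fit to all probes). Liver replicate 1 set that value: without it the difference was -0.03 (limma adjusted p = 0.885). In the authors' values it was 0.10 (limma adjusted p = 0.334). Which transcript forms each of the 4 probes reads was not examined.

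Gja1, the connexin that couples most astrocytes, was higher in hypothalamus and clearly present in liver. ILMN_1244291 read 13.47, 13.39, 13.40 and 13.51 in hypothalamus and 9.08, 9.17, 9.26 and 9.55 in liver, all 8 arrays detecting it. The means were 13.44 ± 0.06 and 9.26 ± 0.20 (SD, n = 4 each), a difference of 4.18 (SE 0.12, limma adjusted p = 4.2e-10), 18.1-fold higher in hypothalamus. The deposited signals ran from 8857 to 11485 in hypothalamus and from 431 to 688 in liver. This difference moved little with the processing, between 3.97 and 4.21.

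Gjb2, a connexin of both hepatocytes and some astrocytes, was higher in liver by all 3 probes. ILMN_2999627 read 6.73, 7.35, 7.99 and 7.41 in hypothalamus and 12.33, 12.54, 12.52 and 12.38 in liver. All 8 arrays detected it and the groups lay far apart. The means were 7.37 ± 0.51 and 12.44 ± 0.10 (SD, n = 4 each), a difference of -5.07 (SE 0.23, limma adjusted p = 1.21e-08), 33.6-fold higher in liver. Its deposited signals were 298, 359, 399 and 385 in hypothalamus and 4373, 6018, 6272 and 5629 in liver.

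The other Gjb2 probes gave the same direction. ILMN_1227148 read 4.93, 5.25, 5.09 and 5.07 in hypothalamus and 9.97, 10.43, 10.38 and 10.51 in liver, a difference of -5.24 (SE 0.14, limma adjusted p = 2.37e-10) and 37.8-fold. It lay near background in hypothalamus, so the size of this fold depends on the processing. The difference was -3.12 without background correction. ILMN_2604713 read 4.43, 4.92, 4.91 and 4.48 in hypothalamus, where 2 of 4 arrays detected it, and 9.25, 8.94, 9.42 and 8.79 in liver. Its difference was -4.42 (SE 0.18, limma adjusted p = 5.4e-09), at least 18.2-fold higher in liver. In the values normalized by the authors these differences were -3.04 for ILMN_1227148 and -2.01 for ILMN_2604713. Gjb2 and Gjb6 lie next to each other on chromosome 14, with 0 protein-coding genes between them in the RefSeq table of GRCm38.p6.

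Ntsr2, the neurotensin receptor that in mouse brain is known from astrocytes, was detected in hypothalamus and on no liver array. ILMN_2769234 read 12.65, 12.60, 12.57 and 12.62 in hypothalamus and 4.92, 4.59, 4.54 and 4.66 in liver. The hypothalamus arrays again lay within 0.08 of one another. The means were 12.61 ± 0.03 and 4.68 ± 0.17 (SD, n = 4 each), a difference of 7.93 (SE 0.11, limma adjusted p = 3.06e-12), at least 130.0-fold higher in hypothalamus. The log2 difference was 5.44 without background correction and 5.62 in the authors' normalized values. The deposited signals were 7034, 6685, 5223 and 6768 in hypothalamus and 137 to 150 in liver.

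**Figure D1:**
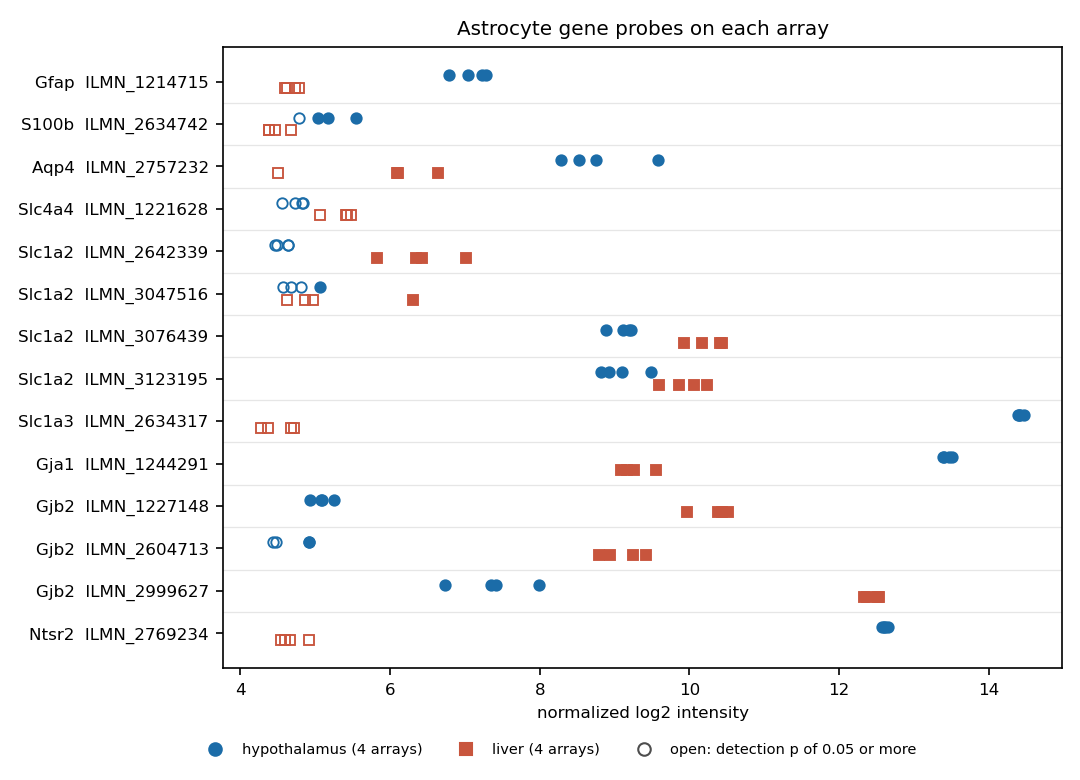
Normalized log2 intensity (x axis) of the 14 probes of the 9 genes (rows) on each of the 4 hypothalamus arrays (blue circles) and 4 liver arrays (red squares), with open symbols where the detection p-value was 0.05 or more. Slc1a3, Ntsr2 and Gja1 stand as tight hypothalamus clusters far to the right of liver, the 3 Gjb2 probes run the other way, and the Slc1a2 groups lie close together.

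**Figure D2:**
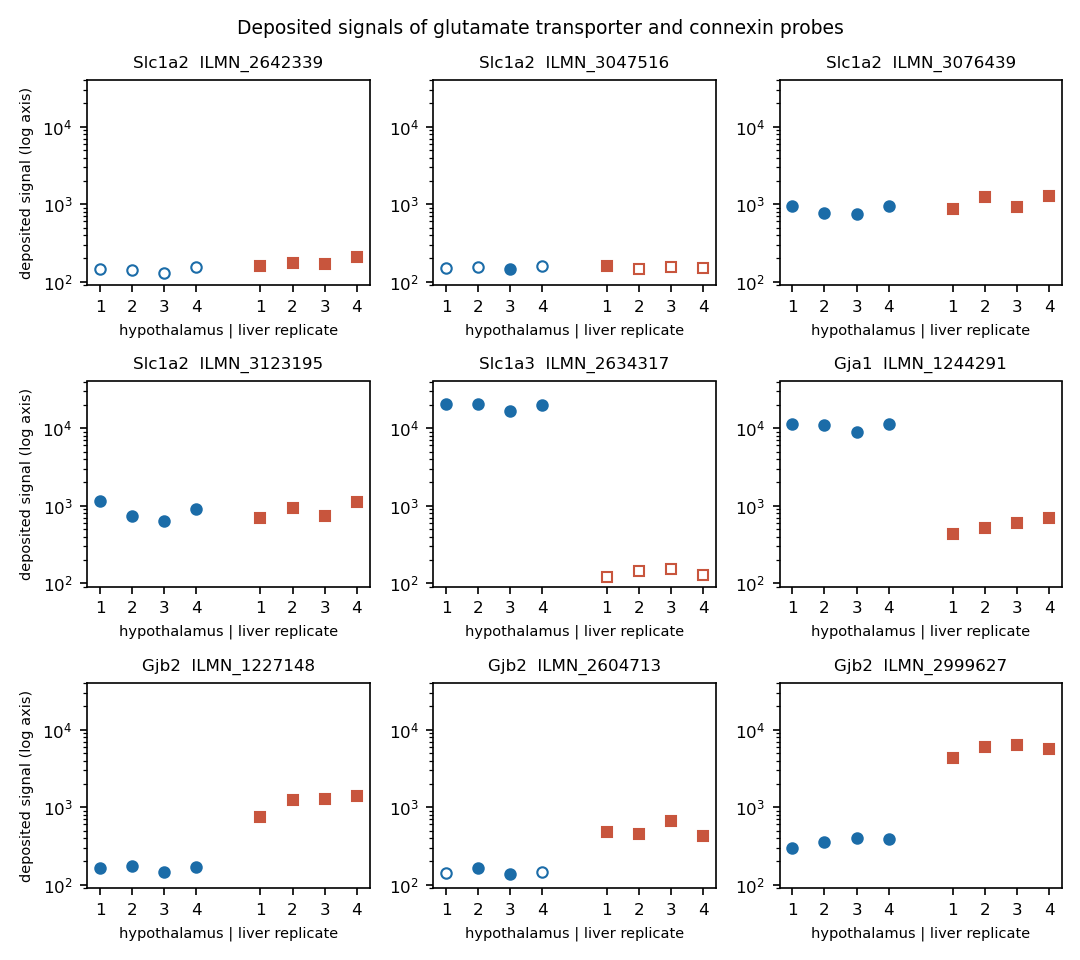
Deposited signal before any correction (y axis, log scale) of 9 probes of Slc1a2, Slc1a3, Gja1 and Gjb2 on each hypothalamus (blue circles) and liver (red squares) replicate (x axis), with open symbols where the detection p-value was 0.05 or more. The Slc1a2 probes ILMN_3076439 and ILMN_3123195 overlap between tissues on this scale, while Slc1a3, Gja1 and Gjb2 do not.

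**Figure D3:**
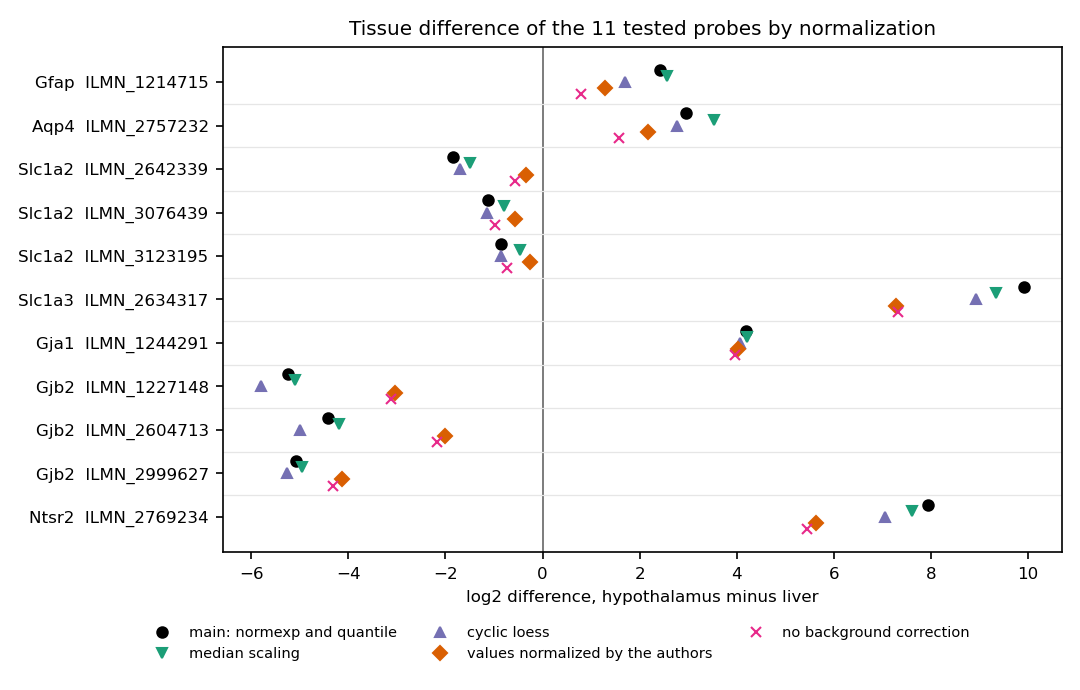
Log2 difference, hypothalamus minus liver (x axis), of the 11 tested probes (rows) under 5 ways of correcting and scaling the arrays, each with its own symbol. No probe crosses 0, Gja1 moves least, and the 3 Slc1a2 probes come closest to 0.

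The arrays of a tissue can be compared for each probe against the spread of all probes. The median SD was 0.16 on the log2 scale over 11941 tested probes detected on all 4 hypothalamus arrays, and 0.19 over 9055 in liver. Of the 14 member probes, 9 were detected on all 4 hypothalamus arrays. The SD of Ntsr2 stood at the 1.3 percentile of all such probes, that of Slc1a3 at 1.5 and that of Gja1 at 5.0. At the other end stood Aqp4 at the 98.2 percentile and the Gjb2 probe ILMN_2999627 at 97.4. These percentiles take in probes of every intensity, and a comparison with probes of like intensity was not made. After median scaling in place of quantile normalization the SDs were 0.10 for Ntsr2, 0.06 for Slc1a3, 0.09 for Gja1, 0.54 for Aqp4 and 0.43 for that Gjb2 probe. Hypothalamus replicate 1 was the highest for 5 of the 9 probes. In liver 7 member probes were detected on all 4 arrays, replicate 4 was the highest for 4 of them, and replicate 3 was the lowest for all 3 tested Slc1a2 probes.

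The Gjb2 probe ILMN_2999627 and the Aqp4 probe deviated in different arrays of the hypothalamus. Gjb2 was lowest in replicate 1 (6.73) and highest in replicate 3 (7.99), while Aqp4 was highest in replicate 1 (9.58). Genes of meninges and fibroblasts, a list added after these values were seen, also stood lowest in replicate 1 and highest in replicate 3: of 7 list genes detected on all 4 arrays, 6 were lowest in replicate 1 and 5 highest in replicate 3. Igf2, a growth factor of the meninges, read 11.04, 12.30, 13.25 and 11.44, and Slc6a13, a GABA transporter of meningeal cells, read 6.83, 8.40, 9.10 and 7.21. The sum of the normalized intensities of the 8 tested list genes, taken back from log2, was 3861, 9185, 15066 and 6394 in hypothalamus replicates 1 to 4. Its brightest genes, Igf2 and Ptgds, weigh most in that sum. The median deviation of the 7 list genes, on which a single gene weighs less, was -0.97, 0.23, 0.78 and -0.13 on the log2 scale. The part of these cells in the Gjb2 values was not tested, and the tissue difference of ILMN_2999627 was as large without hypothalamus replicate 3 (-5.28). The 28 other astrocyte genes detected on all 4 hypothalamus arrays had sums of 84157 to 87084 on that scale and a median deviation between -0.05 and 0.02 on each array.

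**Figure D4:**
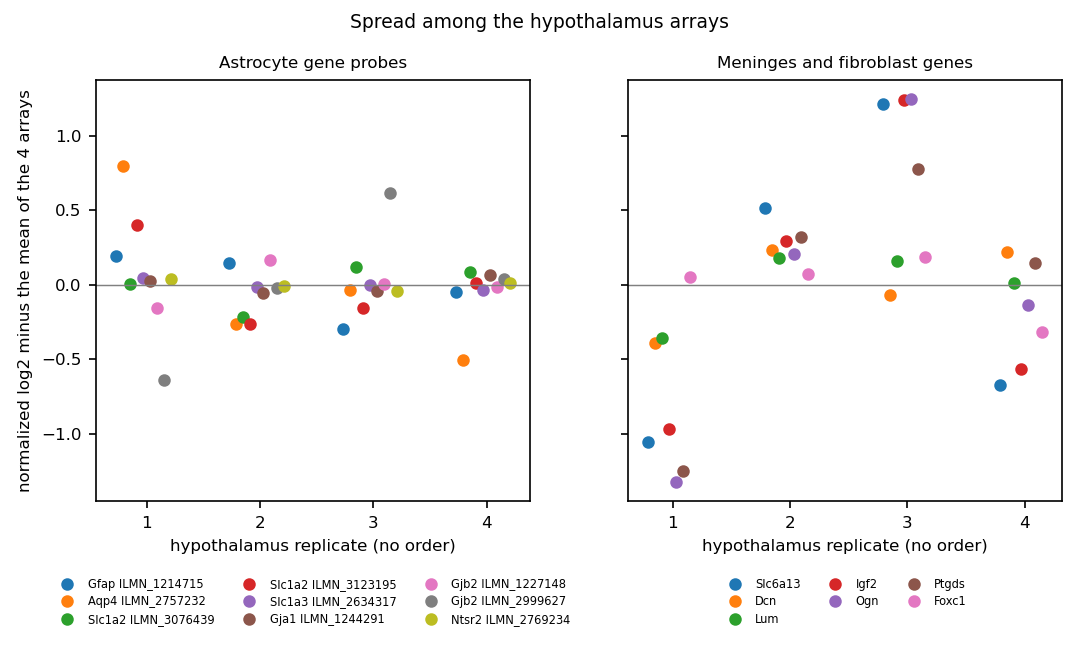
Normalized log2 intensity minus the mean of the 4 hypothalamus arrays (y axis) for each hypothalamus replicate (x axis, in no order), for the 9 member probes (left) and 7 meninges and fibroblast genes (right) detected on all 4 arrays. Gjb2 ILMN_2999627 and most meninges and fibroblast genes are low in replicate 1 and high in replicate 3, Aqp4 is high in replicate 1, and Slc1a3, Gja1 and Ntsr2 stay close to 0.

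Other genes of the same families were read by a rule that left the 10 members out and took each gene by its brightest tested probe, against a median of 0.11 over all tested genes, of which 43.1% were called higher in hypothalamus and 37.3% in liver. These shares are the background of every count of related genes that follows. In these counts, a gene detected on no array of 1 tissue passed the filter only through the other tissue and had to differ. Of the other connexins 5 were tested, 1 was higher in hypothalamus and 2 in liver, which is too few to read against that background. Gjd2, the connexin of electrical synapses, was higher in hypothalamus (log2 difference 4.88, at least 15.5-fold, limma adjusted p = 2.7e-10). Gjb1, the major hepatocyte connexin, was higher in liver beside Gjb2 (-4.11, at least 14.9-fold, limma adjusted p = 1.05e-08). Gja6 was also called higher in liver at -1.01 (limma adjusted p = 0.00212), a call not made in the authors' normalized values (-0.03, limma adjusted p = 0.747). Gjd3 missed the threshold (0.17, limma adjusted p = 0.618), as did the endothelial connexin Gja4 (-0.41, limma adjusted p = 0.0586). Gja4 was called higher in hypothalamus after median scaling (0.40, limma adjusted p = 0.0462) and in the authors' normalized values (0.27, limma adjusted p = 0.0289). Gjd3 was called so in the authors' values only (0.31, limma adjusted p = 0.00641). The connexin counts were 2 and 2 after median scaling, 3 and 1 in the authors' values and 1 and 3 without background correction.

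All 4 other tested aquaporins were higher in liver, the opposite of Aqp4. Aqp9, a channel for glycerol and water in hepatocytes, differed by -7.39 on the log2 scale (167-fold, limma adjusted p = 3.56e-11). In the authors' normalized values that difference was -5.74. Aqp8 differed by -4.00 (at least 13.3-fold) and Aqp11 by -2.68 (6.4-fold). No hypothalamus array detected Aqp8, so it had to be higher in liver. Aqp1 differed by -5.86 (at least 51.1-fold), or at least 78.2-fold without hypothalamus replicate 3, the one hypothalamus array that detected it. Of 7 tested genes of the complex that holds Aqp4 at the end-foot and of its partner channels, 3 were higher in hypothalamus and 4 in liver. The liver count was 2 after median scaling and 1, Dag1, in the authors' normalized values, while the hypothalamus count stayed at 3 in both. Dtna, the dystrobrevin of astrocyte end-feet, exceeded its liver signal at least 3.34-fold in hypothalamus, the potassium channel subunit Kcnj16 at least 3.11-fold and the basal lamina proteoglycan Agrn 2.62-fold. Dag1, which encodes dystroglycan, was 2.51-fold higher in liver.

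Among the other Slc1 transporters, 4 were tested, 2 were higher in hypothalamus and 1 in liver, against 43.1% and 37.3% of all tested genes. The neuronal glutamate transporter Slc1a1 was at least 36.0-fold higher in hypothalamus (log2 difference 6.16, limma adjusted p = 3.14e-11) and the neutral amino acid transporter Slc1a4 at least 14.4-fold (3.89, 3 of 4 liver arrays detecting it). Slc1a7 was called higher in liver at -0.84 (limma adjusted p = 0.00463), but not after median scaling (limma adjusted p = 0.162) or in the authors' values, where it read 0.05 (limma adjusted p = 0.598). Slc1a6 did not pass (-0.52, limma adjusted p = 0.116). Of 10 tested genes for the handling of glutamate and GABA in glia, 6 were higher in hypothalamus and 2 in liver. Of the 10, 5 were detected on no liver array and so were almost bound to be higher in hypothalamus. Atp1b2, the sodium pump subunit of astrocytes, in hypothalamus exceeded liver at least 88.6-fold. The GABA transporter Slc6a11 was at least 24.2-fold higher. The mitochondrial glutamate carrier Slc25a18 was at least 55.9-fold higher, or at least 97.5-fold without hypothalamus replicate 4, which read 8.98 against 11.74 to 12.86 on the other arrays. Slc38a3, a glutamine transporter of both hepatocytes and astrocytes, was 29.5-fold higher in liver, and Glud1, glutamate dehydrogenase, 3.0-fold.

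Of 5 other Slc4 transporters tested, 2 were higher in each tissue, but neither liver call was made in the authors' normalized values. Slc4a3, an anion exchanger of brain and heart, was at least 28.2-fold higher in hypothalamus with 2 of 4 liver arrays detecting it, and Slc4a8 at least 1.58-fold. Slc4a2 differed by -0.71 (limma adjusted p = 0.00432), and by -0.23 in the authors' values (limma adjusted p = 0.148). Slc4a1 differed by -0.76 (limma adjusted p = 0.0323), lost its call after median scaling (limma adjusted p = 0.277) and read 0.06 in the authors' values (limma adjusted p = 0.593). Among 5 genes that act with bicarbonate transport, carbonic anhydrases split: Car2 was at least 10.7-fold and Car4 at least 3.38-fold higher in hypothalamus, and Car14 was 5.62-fold higher in liver.

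Of 15 tested intermediate filament genes beside Gfap, 8 were higher in hypothalamus and 5 in liver, against 43.1% and 37.3% of all tested genes. Of the 15, 4 (Prph, Ina, Nefm and Nefh) were detected on no liver array and so were almost bound to be higher in hypothalamus. Prph lost its call after cyclic loess (0.49, limma adjusted p = 0.0971). The neurofilament genes Ina, Nefm and Nefh were at least 15.2-fold, 11.6-fold and 7.79-fold higher in hypothalamus. Vim, the filament that astrocytes and tanycytes form along with Gfap, differed by 1.07 (2.1-fold, SE 0.27 on the log2 scale, limma adjusted p = 0.00409) and was also higher in hypothalamus. The epithelial keratins Krt8 and Krt18, the filaments of hepatocytes, were 72.3-fold and at least 44.7-fold higher in liver. Krt8 lay near background in hypothalamus (mean 5.15). Its log2 difference of -6.18 was -4.06 in the authors' normalized values, and that of Krt18 went from -5.63 to -3.31. Of 8 other S100 genes tested, 1 (S100a6, 2.57-fold) was higher in hypothalamus and 4 were higher in liver, S100a10 by 6.97-fold and S100a13 by 3.81-fold. In the authors' normalized values these S100 counts were 4 and 3. All 3 tested genes of the neurotensin system other than Ntsr2 were higher in hypothalamus. The peptide gene Nts was at least 1.75-fold higher, the receptor gene Ntsr1 at least 5.86-fold and the sorting receptor gene Sort1 6.55-fold. No liver array detected Nts or Ntsr1, so both were almost bound to differ in that direction, and only Sort1 was free to go either way.

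**Figure D5:**
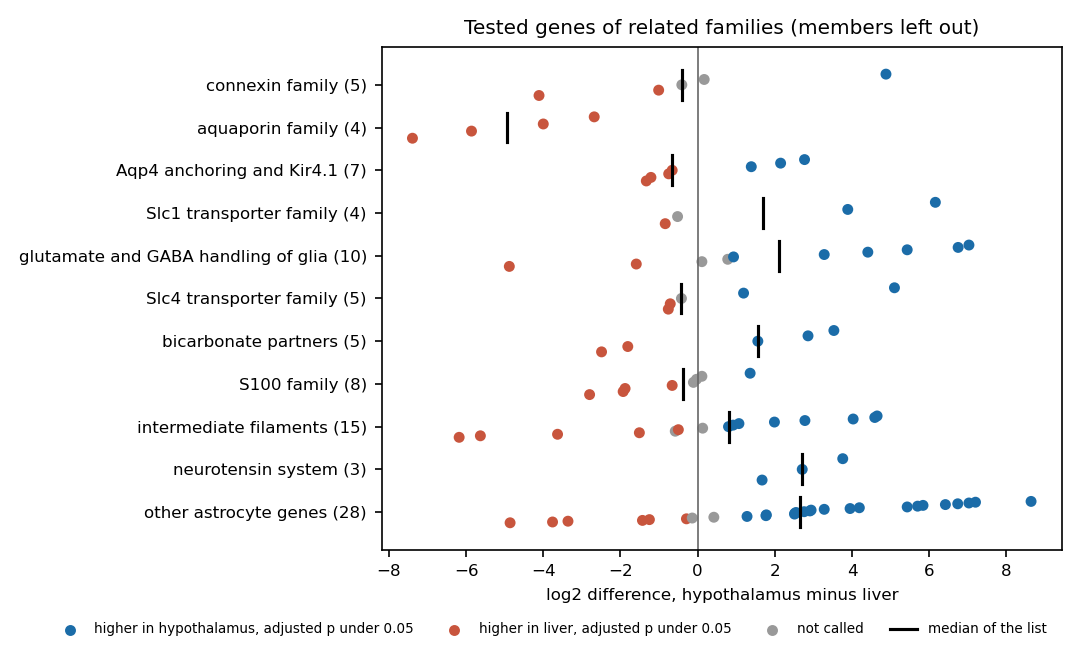
Log2 difference, hypothalamus minus liver (x axis), of each tested gene in 11 lists of related genes with the 10 members left out (rows, number of tested genes in brackets), coloured by its call, with a bar at the median of each list. All 4 other aquaporins lie on the liver side, all 3 neurotensin genes on the hypothalamus side, and the other lists hold genes on both sides. Nts and Ntsr1, detected on no liver array, and Aqp8, detected on no hypothalamus array, were almost bound to lie where they do.

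A wider list of other astrocyte genes was mixed in the same way. Of 28 tested, 20 were higher in hypothalamus and 6 in liver, against 43.1% and 37.3% of all tested genes. The median log2 difference was 2.65, against 0.11 over all tested genes. Of the 28, 14 were detected on no liver array and so were almost bound to be higher in hypothalamus. With only probes detected on all 8 arrays, the median of this list was -1.25. The metallothionein Mt3 was at least 196-fold, Ttyh1 at least 120.0-fold, Atp1b2 at least 88.6-fold and the zinc transporter Slc39a12 at least 60.3-fold higher in hypothalamus. Those higher in liver included enzymes of liver metabolism: Cbs, which makes cystathionine, was 29.0-fold higher, the folate enzyme Aldh1l1 13.6-fold, the proline oxidase Prodh 10.3-fold and the lipid carrier Apoe 2.70-fold. Slc1a2 and Gjb2 shared their direction with these 6 genes.

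Markers of other cell types describe what the 2 tissues held. All 12 tested neuron genes and all 9 tested oligodendrocyte genes were higher in hypothalamus. Of these, 7 and 5 were detected on no liver array and so were almost bound to differ in that direction. All 11 tested hepatocyte genes were higher in liver, where 6 had to be, since no hypothalamus array detected them. The sum of the normalized intensities, taken back from log2, of the tested neuron genes was 99818 to 108778 in hypothalamus and 394 to 535 in liver. That of the hepatocyte genes was 253302 to 262756 in liver. In hypothalamus it was 3193, 3953, 24829 and 3164 in replicates 1 to 4, the high value coming with Ttr, which choroid plexus also makes. Of 7 tested perivenous hepatocyte genes, 5 were higher in liver, with Cyp1a2 at least 185-fold and Gulo at least 111-fold, and their part in the liver signal of Slc1a2 was not tested. Of the 7, 3 were detected on no hypothalamus array and so had to be higher in liver. Other cell types gave mixed lists. Of 9 tested genes of ependyma and tanycytes, 7 were on the hypothalamus side and 1 on the liver side. For microglia and macrophages these counts were 3 and 5 of 10, but 5 and 2 after median scaling and 5 and 1 in the authors' normalized values. For endothelium they were 3 and 4 of 8, but 4 and 3 in both of those settings. They were 1 and 2 of 4 for cholangiocytes and 0 and 4 of 7 for hepatic stellate cells. Detection fixed or nearly fixed the direction of some of these genes. No liver array detected 5 ependyma and tanycyte genes, 3 microglia and macrophage genes and 1 cholangiocyte gene. No hypothalamus array detected 1 microglia and macrophage gene. Some genes of high known expression in brain were not measured by their probes: Snap25, Nefl, Gad2 and Fabp7, chosen after their values were seen, were detected on 0 of 4 hypothalamus arrays. A probe that is not detected here, such as that of Slc4a4, is therefore no measure of absence. Levels of different genes were not compared, since each probe has its own response, so no order of the members by level is given.

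Over all arrays, the median deposited signal was 138.2 to 169.1, and 13285 to 13753 probes were detected in hypothalamus and 10307 to 10828 in liver. Over the tested probes, the correlation between arrays of a tissue was 0.976 to 0.993. Hypothalamus replicate 3 stood apart in choroid plexus genes, with Ttr at 14.32 against 5.42 to 7.88 on the other hypothalamus arrays. It was also the highest array for 8 of 9 tested oligodendrocyte genes (summed normalized intensity 67962 against 55334 to 57110) and for 8 of 10 genes of glutamate and GABA handling, and the lowest for 6 of 9 genes of ependyma and tanycytes. S100b was highest on that array too, and the part of these cells in its value was not tested. With any 1 array left out, the counts of called member probes stayed at 5 toward hypothalamus and 6 toward liver.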

How the data were processed

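The deposited intensity values of 8 Illumina bead arrays were used as they stand in the table without normalization, together with the deposited detection p-value per probe. A second deposited table holds intensity values normalized by the authors by a method that the sources used here do not give, and it served as an alternative. The submitters' processing notes name lumi 2.10.0 and R 2.15.0 without saying what each did. Every signal column was matched to a sample by its label and 0 columns were left over.

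The neqc function of limma 3.58.1 (R 4.3.3) was applied to the signals of all arrays at once: a normexp background correction (offset 16, negative controls inferred through the detection p-values), quantile normalization and log2. This step forces 1 distribution on both tissues and widens differences among dim probes. Of 25697 probes, 13498 were detected, with a p-value below 0.05, on 4 or more of 8 arrays and were tested with lmFit and eBayes, tissue as the only term, two-sided, Benjamini-Hochberg adjusted, threshold 0.05. Member probes outside the filter come from a fit to all probes. Gene symbols came from the platform annotation, in which 23978 probes had 1 symbol, 0 had several and 1719 had none.

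The 10 genes, the lists and the tests were chosen with earlier results of these data known. All member probes are reported. From each list up to 4 called genes with the largest differences per direction, and relatives of the members, could be named. On simulated data for this comparison (13498 probes, 50 changed per size), recovery rose with the size of the change on the log2 scale. It was 11 of 50 probes at 0.5, 38 of 50 at 1 and 49 of 50 at 2. Of 160 calls, 12 were false. Most simulated probes were left unchanged, whereas 79.6% of tested probes were called in the data, so recovery there may differ. Array precision is limited by the number of arrays. Alternatives were median scaling, cyclic loess, the authors' values, no background correction, no filter, a filter of all 8 arrays (7992 probes), the tested probe of lowest mean per gene, a replicate block and each array left out.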

Additional observations from a re-analysis of the deposited data

Results flagged for a closer look

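The probe of Slc4a4, ILMN_1221628, had 1 liver array far from the other 3. Liver replicate 3 read 5.06 on the normalized log2 scale where the others read 5.41 to 5.48, and its gap was 0.83 of the group's range. The deposited signal of that array was 157.9, and the probe was detected on 0 arrays. It was 1 such value among 28 groups of 4 arrays, 14 probes in each tissue, and chance alone gives about 1 in 20 groups.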

How the results depend on the processing

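Of 198 differences of single member probes under other settings, 195 kept their direction and their side of the threshold. The values normalized by the authors turned Slc4a4 to 0.06 and the Slc1a2 probe ILMN_3047516 to 0.10, both on undetected or barely detected probes, and ended the call of ILMN_3123195 (-0.26). With only probes detected on all 8 arrays, 1 member probe and 1 member gene stayed higher in hypothalamus instead of 5, and 2669 of all probes instead of 5639, because that filter drops probes undetected in liver. The authors' values gave 3207 probes higher in liver instead of 5102, and the cause was not tested. List medians changed sign for connexins (0.35 after median scaling, 0.27 in the authors' values), microglia and macrophages (0.48 and 0.40) and endothelium (0.28 and 0.19). The authors' values also turned those of Aqp4 anchoring genes (0.08) and Slc4 genes (0.14). The filter of 8 arrays turned those of Slc1 genes (-0.52), bicarbonate partners (-1.81) and other astrocyte genes (-1.25). Leaving out any 1 array left the counts of member probes at 5 and 6, with 5449 to 5635 of all probes higher in hypothalamus and 4905 to 5097 in liver. Same-numbered arrays of the tissues may share a mouse, but the labels do not say so. Their deviations correlated at 0.064 to 0.175, so that not every pair passed the 0.1 asked of it, although each of the 8 arrays correlated best with its own number. The replicate block left the member counts at 5 and 6 and gave 5637 and 5113 of all probes. Probes near background, which are most of the low ones here, carry bounds rather than levels.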

Other observations

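In hypothalamus replicate 3, choroid plexus genes, a list added after these values were seen, stood above the other arrays. Ttr, the thyroxine carrier, read 5.42, 7.88, 14.32 and 7.79 on the normalized log2 scale in replicates 1 to 4. The antagonist of bone morphogenetic proteins Sostdc1 read 5.25, 5.49, 7.57 and 5.33, the folate receptor Folr1 4.69, 5.28, 7.31 and 5.13, and Kl, which encodes klotho, 6.06, 5.81, 8.18 and 6.09. Of 7 list genes detected on all 4 hypothalamus arrays, 5 were highest in replicate 3. The sum of the normalized intensities of the 9 tested list genes, taken back from log2, was 2086, 2399, 24126 and 2528, the high value coming with Ttr. The median deviation of the 7 list genes, on which a single gene weighs less, was -0.31, -0.17, 0.45 and -0.39 on the log2 scale. In the same array Gfap had its lowest hypothalamus value (6.79), S100b its highest (5.54) and the Gjb2 probe ILMN_2999627 its highest (7.99), while Slc1a3, Gja1 and Ntsr2 lay within 0.05 of their means. The part of choroid plexus tissue in these values was not tested.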
